A study of Homo sapiens with 7 samples.

Results

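The RNA levels of 10 genes that report the output of the ERK pathway, DUSP4, DUSP5, DUSP6, SPRY1, SPRY2, SPRY4, SPRED1, SPRED2, ETV5 and EGR1, were followed in 7 lines of K562, an established chronic myeloid leukemia line driven by the fusion kinase BCR::ABL1. The genes were taken by name from the deposited count table, and all 10 were found among its 25702 gene IDs. The lines were untreated K562 (drug naive), K562 kept in the DMSO vehicle, and 5 dasatinib resistant (DasR) lines grown over the long term in rising doses of dasatinib, an inhibitor of BCR::ABL1 and SRC family kinases, and named for the dose reached. In the terms of the study, DasR lines at 10, 15 and 25 nM are early stage and those at 50 and 200 nM late stage, and the controls are drug naive and DMSO. The study set these groups from a clustering of the same 7 libraries, so that a difference between groups is not independent of how they were drawn. There was 1 library per line, with total counts between 20059656 and 27844799, and a group therefore holds different lines and not repeats of a line. All lines descend from K562, whose labelled cell type is erythroblast, and all 12 erythroid markers looked at were present in the lines.

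BCR::ABL1 signals to the RAS, RAF, MEK and ERK kinase cascade through adaptor proteins such as GRB2 and GAB2. Active ERK switches on a set of genes whose products act back on the cascade. Dual specificity phosphatases (DUSP) remove phosphate from ERK, Sprouty (SPRY) and SPRED proteins restrain the step from receptors or RAS to RAF, and ETV5 and EGR1 are transcription factors that carry the signal on to further genes. Because these genes respond to ERK activity, their RNA is widely read as a measure of pathway output, and several of them are known to fall when the pathway is inhibited.

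RNA of 5 of the 10 genes, SPRY4, SPRED1, SPRED2, ETV5 and EGR1, reached 10 CPM (counts of a gene per 1000000 counts in its library) in at least 2 libraries, the limit for the main test. The other 5 were scarce. DUSP5, DUSP6, SPRY1 and SPRY2 passed a limit of 1 CPM in 2 libraries, and DUSP4 passed neither. In the early stage lines SPRY4 and ETV5 fell, to 0.274 and 0.395 times their mean CPM in the controls. In the late stage lines SPRY4 lay on either side of the controls, at 1.11 times their mean, and ETV5 in between, at 0.677 times the control mean. EGR1 was highest in the 200 nM DasR line, and the scarce SPRY1 was higher in every DasR line than in both controls, as were 22.0% of the genes past 1 CPM. The few counts of DUSP6 were also higher in every DasR line.

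**Figure D1:**
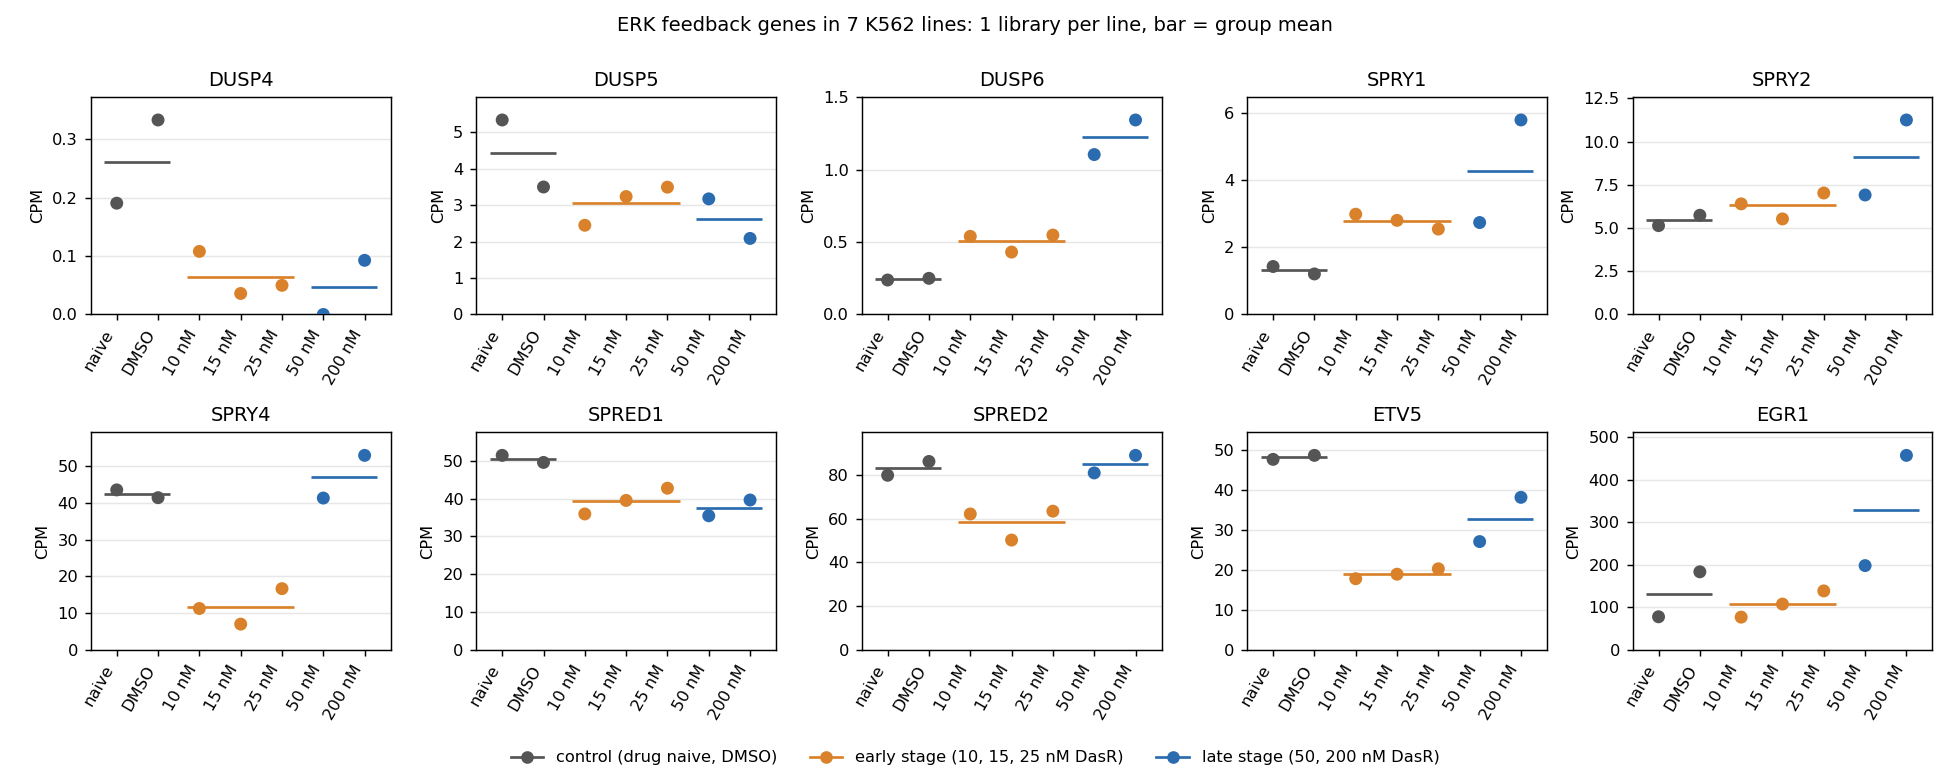
CPM of each of the 10 genes in each of the 7 lines, 1 point per library, coloured by group, with a bar at each group mean. Each panel has its own linear axis from 0. SPRY4 and ETV5 are lowest in the 3 early stage lines, EGR1 is highest in the 200 nM DasR line, and DUSP4 is near 0 in all lines.

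Promoter sequence from RefSeq (build GRCh38.p14, windows of 250 bases before to 50 after a start) was given for 7 of the 10 genes. The windows were searched on both strands for the CArG box bound by SRF (CC, 6 bases of A or T, GG), the ETS site CCGGAAGT, the AP-1 site TGACTCA, the cyclic AMP response element TGACGTCA and the EGR site GCGTGGGCG, of which the first is held by 1.29% of all 35116 windows and the others by 4.14%, 4.95%, 1.85% and 0.795%. The window of EGR1 held 2 CArG boxes, CCATATTAGG and CCATATATGG, from 105 to 96 and from 83 to 74 bases before the start. One of the windows of SPRED2 held an AP-1 site, which covered its start. The windows of SPRY4, DUSP6, SPRY1, SPRY2 and SPRED1 held none of these letters. The 250 bases before the start of EGR1 and of SPRY4 are shown, since these genes had unlike patterns over the lines; capitals mark the CArG boxes, EGR1 lies on the plus strand at chr5:138465229-138465478, and SPRY4 on the minus strand at chr5:142324248-142324497.
EGR1: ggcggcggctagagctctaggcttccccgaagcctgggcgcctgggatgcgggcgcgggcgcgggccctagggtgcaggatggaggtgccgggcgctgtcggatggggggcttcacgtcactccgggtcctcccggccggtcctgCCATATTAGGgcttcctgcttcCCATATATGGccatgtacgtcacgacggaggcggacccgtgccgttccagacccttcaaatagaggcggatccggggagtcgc
SPRY4: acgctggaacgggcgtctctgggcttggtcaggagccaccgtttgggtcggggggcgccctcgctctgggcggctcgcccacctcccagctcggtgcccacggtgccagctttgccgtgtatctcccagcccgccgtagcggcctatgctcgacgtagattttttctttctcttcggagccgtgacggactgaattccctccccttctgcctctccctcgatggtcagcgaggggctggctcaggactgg

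SPRY4 encodes a Sprouty protein that holds back RAS signaling from receptor tyrosine kinases (chromosome 5, 141689992 to 141706020, GRCh37, the same build as the hg19 used for the counts). Its level was 43.5 CPM in the drug naive line, 41.4 in DMSO, 11.3 in 10 nM, 7.0 in 15 nM, 16.7 in 25 nM, 41.3 in 50 nM and 52.9 in 200 nM DasR. All 3 early stage lines lay below both controls and below both late stage lines, and the late stage lines lay on either side of the controls. The group means were 42.5 ± 1.5 (SD, n = 2) in the controls, 11.6 ± 4.83 (SD, n = 3) in the early stage and 47.1 ± 8.21 (SD, n = 2) in the late stage. On the log2 scale SPRY4 fell by 1.89 ± 0.31 (SE) from control to early stage, with an adjusted p of 0.0032 in the quasi-likelihood test of edgeR, adjusted by the Benjamini-Hochberg method over 10452 genes, under the threshold of 0.005 used in the study. The call was lost without the drug naive line (adjusted p = 0.026), without the DMSO line (0.016) or without the 10 nM line (0.010), where the log2 differences were -1.82, -1.95 and -1.87.

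ETV5, with ETV1 and ETV4 a member of the PEA3 group of ETS transcription factors, lies on chromosome 3 (185764103 to 185828107) and shares exon sequence on the same strand with DGKG, so that some of its reads may be assigned to either gene. ETV5 stood at 47.6 CPM in drug naive, 48.6 in DMSO, 17.8 in 10 nM, 18.9 in 15 nM, 20.2 in 25 nM, 27.0 in 50 nM and 38.1 in 200 nM DasR. Every DasR line lay below both controls and both late stage lines lay above all 3 early stage lines. From control (48.1 ± 0.703 CPM, SD, n = 2) to early stage (19.0 ± 1.24 CPM, SD, n = 3) the log2 level fell by 1.36 ± 0.15 (SE), with an adjusted p of 0.00073 in edgeR. Without the drug naive or the DMSO line the adjusted p rose above the threshold, to 0.0088 and 0.0060, at log2 differences of -1.34 and -1.37.

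SPRED1 and SPRED2 encode membrane proteins that bind neurofibromin, the RAS GTPase activating protein made by NF1, and so restrain RAS. SPRED2 (chromosome 2, 65537985 to 65659771) had 79.9 CPM in drug naive, 86.2 in DMSO, 62.2 in 10 nM, 50.2 in 15 nM, 63.5 in 25 nM, 81.0 in 50 nM and 89.0 in 200 nM DasR. As for SPRY4, the early stage lines were below all other lines. The late stage lines were among or above the controls. Its early stage log2 difference of -0.52 ± 0.12 (SE) had an adjusted p of 0.011 in edgeR and missed the threshold of 0.005, whereas DESeq2 gave an adjusted p of 0.0013. SPRED1 (chromosome 15, 38545037 to 38649450) differed less, with 51.5 CPM in drug naive, 49.6 in DMSO, 36.0 in 10 nM, 39.5 in 15 nM, 42.8 in 25 nM, 35.5 in 50 nM and 39.7 in 200 nM DasR. All 5 DasR lines lay below both controls with no split between early and late stage. The log2 differences from control were -0.37 ± 0.11 (SE) in the early and -0.45 ± 0.12 (SE) in the late stage, with adjusted p of 0.024 in both, past 0.05 but not past 0.005 in edgeR.

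EGR1 is an immediate early zinc finger factor whose gene is switched on within minutes of ERK activation (chromosome 5, 137801168 to 137804992). Its counts were high, yet the level moved widely among lines of a group, with 77.7 CPM in drug naive, 183 in DMSO, 76.9 in 10 nM, 108 in 15 nM, 138 in 25 nM, 198 in 50 nM and 457 in 200 nM DasR. Both late stage lines lay above the other 5 lines, while the 15 and 25 nM lines lay between the controls and the 10 nM line just below the drug naive line. The late stage mean of 327 ± 183 CPM (SD, n = 2) against 131 ± 74.7 (SD, n = 2) in the controls gave a log2 difference of 1.31 ± 0.50 (SE) with an adjusted p of 0.079 in edgeR, which missed the threshold. Without the 200 nM line that log2 difference was 0.60 with an adjusted p of 0.40. From control to early stage the difference was -0.28 ± 0.45 (SE, adjusted p = 0.63 in edgeR), and it turned to 0.42 without the DMSO line.

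Compared per kilobase of gene length, the control means were 41.6 CPM per kb for EGR1, 17.9 for SPRED2, 11.7 for ETV5, 8.50 for SPRY4 and 6.96 for SPRED1. The control lines of neighbours in this order did not overlap. In the early stage the order was EGR1 (34.3), SPRED2 (12.6), SPRED1 (5.43), ETV5 (4.62) and SPRY4 (2.33), so that SPRY4 passed from the fourth to the last place, with SPRED1 and ETV5 close together at 4.96 and 4.93 CPM per kb in their nearest lines. In the late stage the means were 104 for EGR1, 18.3 for SPRED2, 9.43 for SPRY4, 7.94 for ETV5 and 5.18 for SPRED1, and the lines of SPRY4 and ETV5 overlapped.

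The phosphatase genes were at the edge of detection. DUSP6, the cytoplasmic phosphatase specific for ERK (chromosome 12, 89741012 to 89746278), had 5 counts in drug naive, 6 in DMSO, 15 in 10 nM, 12 in 15 nM, 11 in 25 nM, 23 in 50 nM and 29 in 200 nM DasR, or 0.244 ± 0.008 CPM (SD, n = 2) in the controls, 0.506 ± 0.065 (SD, n = 3) in the early and 1.22 ± 0.169 (SD, n = 2) in the late stage. The 3 groups did not overlap and lay in the order control, early, late. All 5 DasR lines lay above both controls for 22.0% of the genes past 1 CPM. The share of genes with the full order was not counted, so nothing particular to DUSP6 is read from it. As pooled counts, the late stage level was 5.02 times that of the controls (95% exact interval 2.59 to 10.7) and the early stage level 2.06 times (1.03 to 4.46). These intervals cover counting error only. They leave out the spread between the lines of a group and are not read as tests. DUSP6 passed the 1 CPM limit through the late stage lines alone, so that its log2 differences of 1.02 ± 0.42 (SE) in the early and 2.32 ± 0.43 (SE) in the late stage are given as values with no test. An unnamed gene on the opposite strand overlaps its exons, and whether strand was used in counting is not given in the sources used here.

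DUSP5, a nuclear phosphatase of ERK (chromosome 10, 112257665 to 112271291), was the reverse of DUSP6 in sign. It had 5.33 CPM in drug naive, 3.49 in DMSO, 2.45 in 10 nM, 3.23 in 15 nM, 3.49 in 25 nM, 3.17 in 50 nM and 2.08 in 200 nM DasR. Its highest DasR line, 25 nM, all but reached the DMSO line, and the log2 differences of -0.54 ± 0.31 (SE) in the early and -0.74 ± 0.35 (SE) in the late stage had adjusted p of 0.20 and 0.15 in edgeR. Without the drug naive line they were -0.18 and -0.37, and without the 200 nM line the late stage difference was -0.47. DUSP4, another nuclear phosphatase (chromosome 8, 29190581 to 29208201), had 4 and 8 counts in the drug naive and DMSO lines and 0 to 3 in each DasR line. At 3 counts or fewer, the floor taken here, no level could be told from background in the DasR lines. Pooled counts of DUSP4 were 12 in the controls, 5 in the early and 2 in the late stage. They are therefore read as limits only, at most 0.756 times the controls in the early and 0.795 times in the late stage. These are the upper ends of 95% exact intervals, which cover counting error only and leave out the spread between the lines of a group.

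SPRY1 and SPRY2 encode Sprouty proteins related to that of SPRY4, and neither shared its dip. SPRY1 (chromosome 4, 124317950 to 124324915) had 1.43 CPM in drug naive, 1.21 in DMSO, 2.98 in 10 nM, 2.80 in 15 nM, 2.54 in 25 nM, 2.74 in 50 nM and 5.79 in 200 nM DasR. All 5 DasR lines lay above both controls, and the 200 nM line stood apart from the other 4. The log2 differences were 1.07 ± 0.37 (SE, adjusted p = 0.051 in edgeR) in the early and 1.71 ± 0.39 (SE, adjusted p = 0.018 in edgeR) in the late stage, and the latter was 1.07 without the 200 nM line. SPRY2 (chromosome 13, 80910111 to 80915261) had 5.14 CPM in drug naive, 5.74 in DMSO, 6.40 in 10 nM, 5.53 in 15 nM, 7.03 in 25 nM, 6.91 in 50 nM and 11.3 in 200 nM DasR. Its early stage lines overlapped the controls, the 200 nM line was again the highest, and neither log2 difference from control (0.21 ± 0.25 and 0.75 ± 0.27, SE) passed the threshold in edgeR (adjusted p = 0.54 and 0.074). Without the 200 nM line the late stage difference was 0.36.

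Set against all genes, in the comparison of early stage with control 2 of the 5 tested genes were called lower and 0 higher, where 10.1% of the 10452 genes tested were called lower and 7.92% higher by edgeR at an adjusted p of 0.005. Their median log2 difference was -0.52, and that of all genes 0.003. At an adjusted p of 0.05, which 24.0% of all genes passed as lower, SPRED1 and SPRED2 joined SPRY4 and ETV5. All early stage lines lay below both controls for SPRY4, SPRED1, SPRED2 and ETV5, 4 of the 5, as they did for 34.0% of all genes tested. All 5 DasR lines lay below both controls for SPRED1 and ETV5, and for 23.7% of all genes tested. The fit for DUSP5, SPRY1 and SPRY2, run on the 14899 genes past 1 CPM, called 0 of the 3 in the early stage, against 14.3% of those genes in either direction.

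In the late stage against the same controls 0 of the 5 tested genes were called by edgeR at 0.005, against 7.98% of all genes in either direction, and 3 of the 5 had an unadjusted p under 0.05 (SPRED1, ETV5 and EGR1), as did 4798 of the 10452 genes. DESeq2 and limma-voom also called 0 of these 5, where they called 2503 and 788 of all genes. At 0.05 SPRED1 and ETV5 were called lower, where 17.6% of all genes were. With the 2 groups alone in the fit neither passed 0.05 (adjusted p = 0.054 and 0.064 in edgeR). The median log2 difference of the 5 was 0.01, and -0.004 over all genes. The 95% intervals of the log2 difference were -0.67 to 0.92 for SPRY4 and -0.30 to 0.32 for SPRED2, so that a return to the control level was not separable from a moderate difference for SPRY4. ETV5 was lower in both late stage lines than in both controls, with a log2 difference of -0.58 ± 0.16 (SE) and an adjusted p of 0.031 in edgeR. Of DUSP5, SPRY1 and SPRY2, edgeR called 0 at 0.005, against 5.55% of the genes past 1 CPM in either direction, while DESeq2 called SPRY1 higher (adjusted p = 0.0047). At 0.05 edgeR called SPRY1 higher, where 14.0% of those genes were. The early and late stage comparisons share their 2 control lines.

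**Figure D2:**
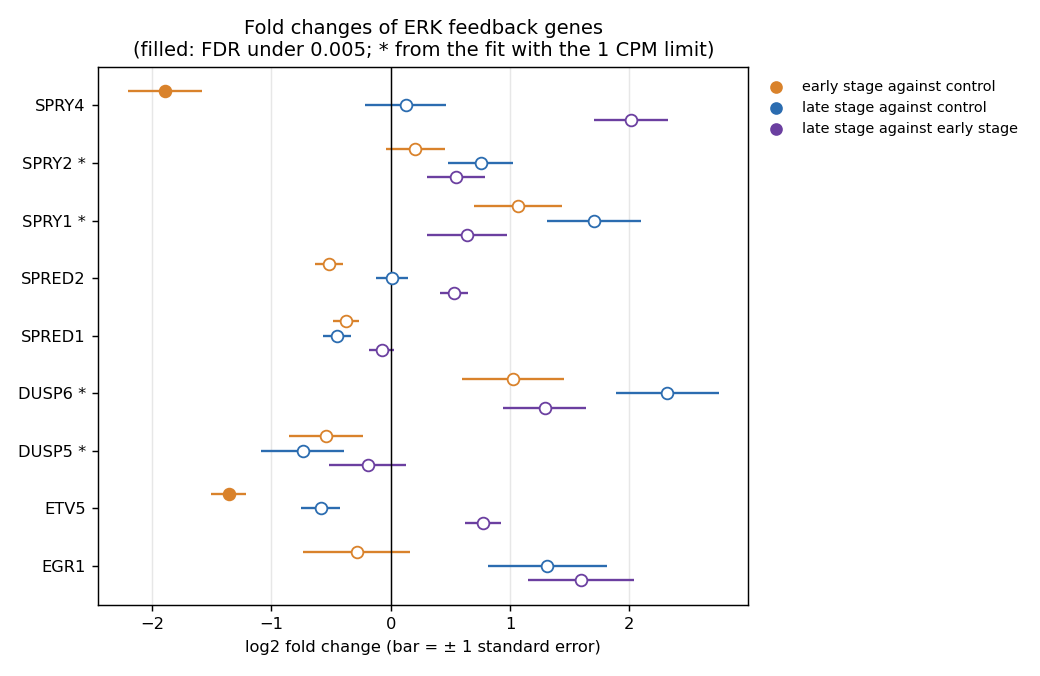
Log2 fold change of each tested gene with its standard error in the 3 comparisons, from edgeR, with filled points for an adjusted p under 0.005 and a star for genes fitted at the 1 CPM limit, which DUSP6 passed through the late stage lines alone. SPRY4 and ETV5 are lowest in early stage against control, and SPRY4 has the largest difference between late and early stage, 2.02.

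Late stage lines were compared directly with early stage lines to test the difference between them. SPRY4 was higher in the late stage by 2.02 ± 0.31 (SE) on the log2 scale, ETV5 by 0.77 ± 0.15 (SE) and SPRED2 by 0.53 ± 0.12 (SE), with adjusted p of 0.017, 0.024 and 0.034 in edgeR. At 0.005 edgeR called 0 of the 5 genes and 0.0% of all genes, the smallest adjusted p over all genes being 0.0167, and limma-voom also called 0 of the 5. At 0.05 these 3 genes were called higher, where 6.6% of all genes were. DESeq2 called the same 3 higher at 0.005, where it called 565 of all genes higher and 570 lower. Of the 5 genes 4 had an unadjusted p under 0.05, the fourth being EGR1 at 1.60 ± 0.44 (SE, adjusted p = 0.056 in edgeR), and so had 3450 of the 10452 genes. EGR1 had 198 CPM in 50 nM and 457 in 200 nM DasR, against an early stage mean of 108. Both late stage lines lay above all early stage lines for SPRY4, SPRED2, ETV5 and EGR1, as they did for 26.8% of all genes tested. Of DUSP5, SPRY1 and SPRY2, 0 were called at 0.005, and 0.0% of the genes past 1 CPM. Early stage lines below every other line were found for SPRY4, SPRED2 and ETV5, and for 15.9% of all genes. Without the 200 nM line the adjusted p of SPRY4 was 0.087 at a log2 difference of 1.84, that of ETV5 0.11 at 0.52 and that of SPRED2 0.18 at 0.47. ETV5 also missed 0.05 without the 15 nM (adjusted p = 0.064) or the 25 nM line (0.055), and SPRED2 without either of these (0.063 and 0.067) or without the drug naive or the DMSO line (both 0.061), all in edgeR.

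Across the 7 lines the log2 CPM (prior count 2) of SPRY4 and SPRED2 had a Pearson correlation of 0.985, SPRY4 and ETV5 of 0.864, and SPRED2 and ETV5 of 0.839. A different group was formed by DUSP6, SPRY1 and SPRY2, with correlations of 0.880 for DUSP6 and SPRY1, 0.855 for DUSP6 and SPRY2 and 0.837 for SPRY1 and SPRY2. Between these groups the values ran from -0.395 for SPRY1 and ETV5 to 0.414 for SPRY2 and SPRED2. EGR1 was nearer to SPRY2 (0.836) and DUSP6 (0.69) than to SPRY4 (0.576), SPRED2 (0.581) or ETV5 (0.347). Its correlation with SPRY1, 0.537, was below those with SPRY4 and SPRED2. These are descriptions over 7 lines that fall into 3 groups and descend from a common line, and the counts behind DUSP6 are few. Of all genes tested, those most like SPRY4 over the lines were ARHGAP24 (0.998), UBE2J1 (0.993) and HEY1 (0.992), beside a 99th percentile of 0.966. Those most like DUSP6 were DOK2 (0.996), PPP3CA (0.992) and CUL3 (0.991), beside a 99th percentile of 0.950. Both sets were picked as the highest of all genes tested, so no link to SPRY4 or DUSP6 is read from them. DUSP6 also passed 1 CPM through the late stage lines alone. DOK2, an adaptor that restrains RAS signaling in blood cells, had 5.14 CPM in drug naive and 4.74 in DMSO, between 8.51 and 13.7 in the early stage lines, and 32.9 and 39.6 in the 50 and 200 nM DasR lines. This pattern follows from its choice by likeness to DUSP6.

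**Figure D3:**
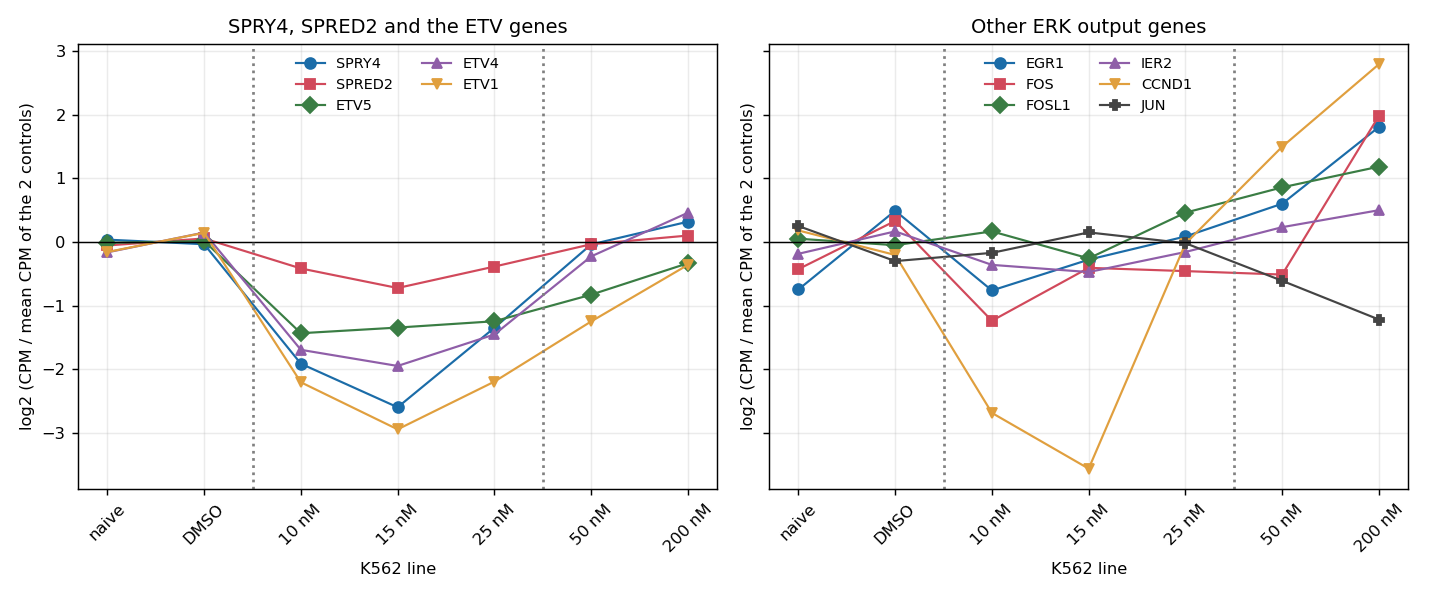
Log2 of CPM over the control mean in each line, in dose order, for SPRY4, SPRED2, ETV5, ETV4 and ETV1 (left) and for EGR1, FOS, FOSL1, IER2, CCND1 and JUN (right). The genes on the left dip in the 3 early stage lines and are higher in the late stage lines, and of those on the right EGR1, FOS, FOSL1, IER2 and CCND1 are highest and JUN lowest in the 200 nM DasR line.

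Other genes of the pathway were taken as 6 lists, whose counts stand beside the shares of all genes tested at 10 CPM, in the early stage 7.92% higher and 10.1% lower, and in the late stage 7.98% in either direction. The lists are short, and nothing particular to a list is read from its counts. Among 15 further genes downstream of ERK, 9 were tested, 0 rose and 2 fell in the early stage, and 0 were called in the late stage. The 2 were the remaining PEA3 factors, which like ETV5 were lowest in the early stage lines. ETV4 had 57.2 and 71.0 CPM in the controls, 19.8, 16.6 and 23.4 in the early stage lines, and 54.7 and 88.1 in the late stage lines. Its log2 level fell by 1.70 ± 0.22 (SE, adjusted p = 0.0013 in edgeR) in the early stage, and late stage lines overlapped the controls. ETV1 had 53.8 and 66.4 CPM in the controls, 13.0, 7.79 and 13.1 in the early stage, and 25.3 and 46.8 in the late stage, a fall of 2.42 ± 0.30 (SE, adjusted p = 0.0012 in edgeR) in the early stage.

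The immediate early genes beside EGR1 had mixed values. IER2 had 120 and 153 CPM in the controls, 106, 98 and 122 in the early stage lines and 160 and 192 in the late stage lines, with a Pearson correlation of 0.863 with SPRY4 over the 7 lines. FOS was under 5 CPM in 6 lines and at 15.4 in the 200 nM DasR line, the line in which EGR1 was highest too. FOSL1 had log2 differences of 0.13 in the early and 1.01 in the late stage (adjusted p = 0.65 and 0.019 in edgeR), and JUN of -0.03 and -0.91 (adjusted p = 0.93 and 0.032 in edgeR). CCND1, which encodes the cell cycle regulator cyclin D1, had 17.3 and 13.3 CPM in the controls, 2.37, 1.29 and 15.0 in the early stage lines, and 43.2 and 106 in the late stage lines. Its 25 nM line lay between the controls, and its early stage log2 difference of -1.36 ± 0.90 (SE) had an adjusted p of 0.25 in edgeR. IER2, FOS, FOSL1, JUN and CCND1 were named after their values were seen.

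Of 7 other MAP kinase phosphatases 6 were tested at the 1 CPM limit, and 1 rose and 1 fell in the early stage. Of the 14899 genes tested there, 952 were called higher and 1176 lower. DUSP9 passed 10 CPM through the DasR lines and 1 control, and DUSP10 through the controls alone. The count and their values are therefore given from the fit at 1 CPM, a level both exceeded in all 7 lines. DUSP9, a phosphatase of ERK, rose by 2.09 ± 0.24 (SE, adjusted p = 0.0010 in edgeR) on the log2 scale, from 10.9 and 6.70 CPM in the controls to 32.6, 43.1 and 37.7 in the early stage lines, with 29.0 and 24.6 in the late stage lines. DUSP10, which acts mainly on p38 and JNK, fell by 2.96 ± 0.37 (SE, adjusted p = 0.0013 in edgeR), from 17.8 and 15.6 CPM to 2.09, 1.47 and 2.94, with 1.87 and 3.94 in the late stage. Neither passed 0.005 in the late stage (adjusted p = 0.0052 and 0.0065 in edgeR).

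Above RAS, all 11 adaptor and exchange factor genes were tested, and 2 fell and 0 rose in the early stage, beside the 10.1% and 7.92% of all genes. GAB2, the docking protein that links BCR::ABL1 to RAS and PI3 kinase signaling, had 378 and 326 CPM in the controls, 76.8, 73.9 and 70.4 in the early stage lines, and 78.4 and 82.1 in the late stage lines. All 5 DasR lines were far below the controls, with log2 falls of 2.27 ± 0.10 (SE) and 2.16 ± 0.12 (SE) and adjusted p of 7.8e-05 and 0.00022 in edgeR. SOS2, an exchange factor that loads RAS with GTP, fell by 0.55 ± 0.08 (SE, adjusted p = 0.0025 in edgeR) in the early stage. Of 7 genes that switch RAS off or degrade it 5 were tested, and 2 fell in the early and 1 in the late stage. DAB2IP, not among them, had 2 counts in each control, under the floor of 3, and 1.58, 7.18 and 3.34 CPM in the early stage lines. In the late stage lines it had 0.384 and 0.185 CPM. It passed 1 CPM through the early stage lines alone, so that no test is given. RASAL2, also not among them, had 3.14 and 2.75 CPM in the controls and between 0.787 and 2.66 in the DasR lines. NF1, which SPRED proteins bring to RAS, fell by 0.90 ± 0.08 (SE, adjusted p = 0.00045 in edgeR) and by 0.75 ± 0.09 (SE, adjusted p = 0.0021 in edgeR) in the early and late stage. RASA3, another GTPase activating protein, fell by 1.81 ± 0.24 (SE, adjusted p = 0.0015 in edgeR) in the early stage, and its late stage difference was -0.43 with an adjusted p of 0.25.

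In the cascade itself all 12 RAS, RAF, MEK and ERK genes were tested and 1 fell in the early stage, KSR1, a scaffold that holds RAF, MEK and ERK together (fall of 1.80 ± 0.14, SE, adjusted p = 0.00023 in edgeR). KSR1 had 114 and 116 CPM in the controls, 35.1, 28.5 and 36.6 in the early stage, and 54.4 and 69.0 in the late stage lines. Of 12 ERK substrates and SRF or ETS partners 10 were tested and 1 fell in the early stage, MKNK2, a kinase of the translation factor eIF4E (fall of 1.19 ± 0.11, SE, adjusted p = 0.00048 in edgeR). In the cascade and substrate lists 0 genes were called in the late stage. The median log2 difference of the phosphatases in the early stage was 0.35 in the fit at 1 CPM. In the fit at 10 CPM the medians were -0.34 for the further downstream genes, -0.11 for the adaptors and 0.002 for the RAS inhibitors. Those of the cascade and the substrates were -0.02 and -0.10.

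**Figure D4:**
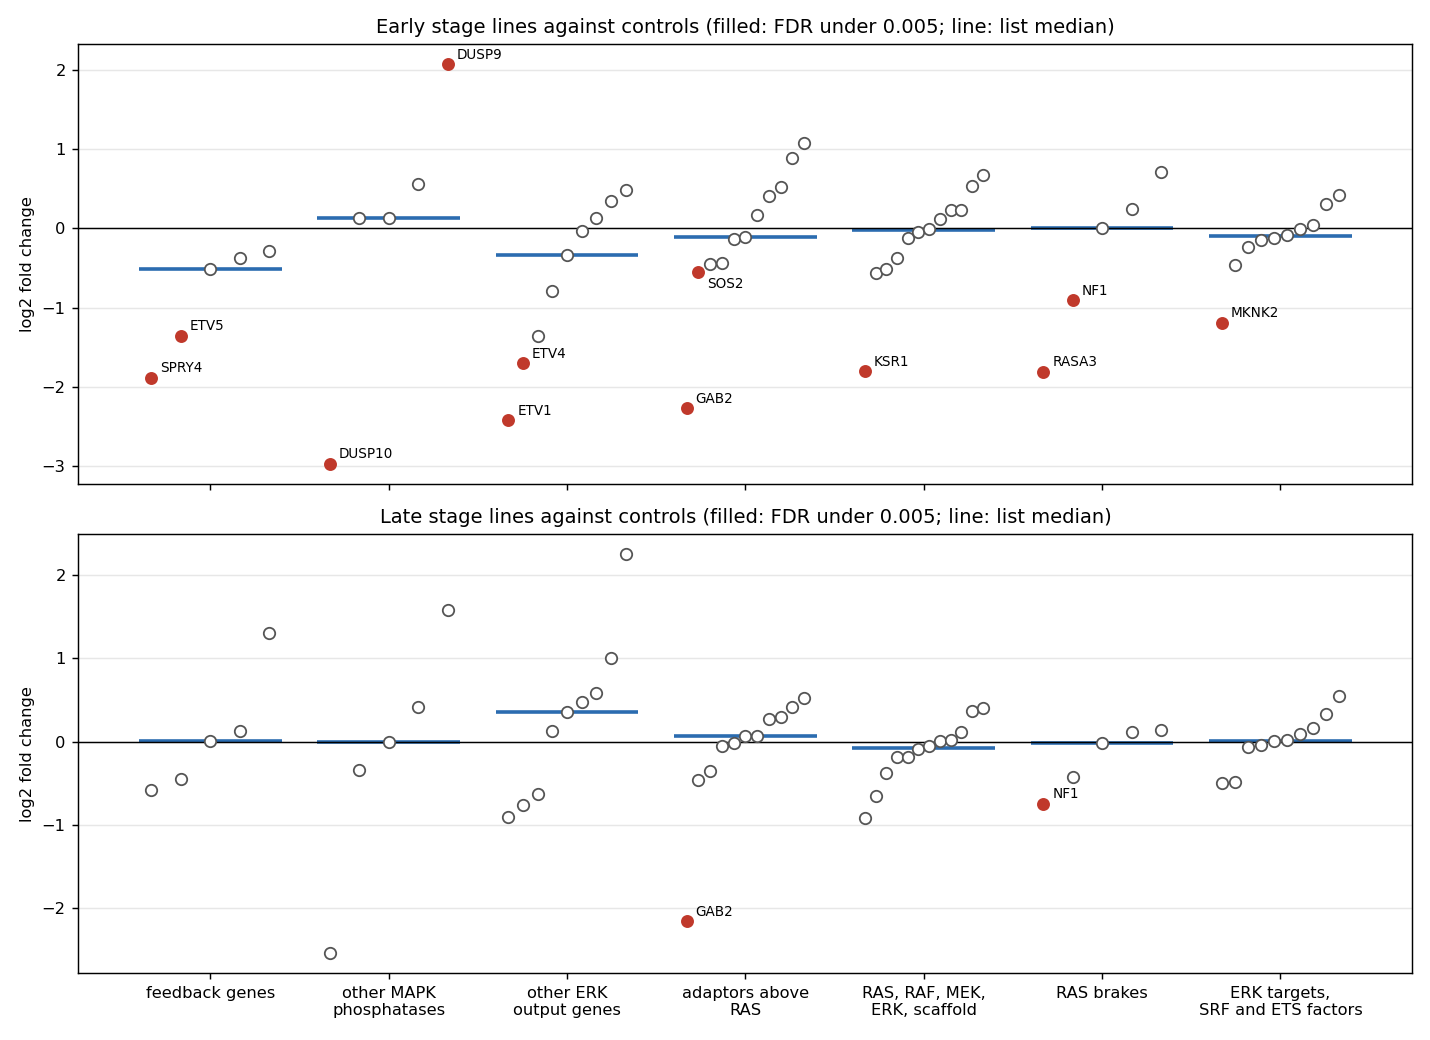
Log2 fold change of every gene past 10 CPM among the ERK output genes and the 6 other pathway lists in the early and late stage against control, with filled points for an adjusted p under 0.005 in edgeR and a line at each list's median. DUSP10 passed 10 CPM through the controls alone and DUSP9 through the DasR lines and 1 control. The text therefore takes the count, tests and median of the phosphatases from the fit at 1 CPM and not from these points. The other points furthest below 0 in the early stage include ETV1, GAB2, SPRY4, RASA3 and KSR1.

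Several other measures moved with these genes, and their part in the results was not tested. BCR had 195 and 180 CPM in the controls, 1379, 1097 and 933 in the early stage, and 757 and 463 in the late stage lines, and ABL1 349 and 319, then 2557, 2021 and 1686, then 1390 and 918. ABCG2, the drug efflux pump, had 3.57 and 0.582 CPM in the controls, 512, 3122 and 3089 in the early stage lines, 199 in 50 nM and 2.41 in 200 nM DasR, so that the lines with the least SPRY4 had the most of it. Erythroid markers, 12 of 12 tested, summed to 4067 and 3476 CPM in the controls, 10079, 11468 and 8613 in the early stage and 5934 and 4637 in the late stage lines. HBG2, a fetal globin, was the most abundant of them summed over the lines, though below the embryonic globin HBZ in 15 nM (2283 and 2856 CPM) and level with it in 25 nM (1916 and 1917), and HBG1, EPOR and TFRC, 3 of the 12, were called higher in the early stage, beside 7.92% of all genes. TFRC, the transferrin receptor, was also called higher in the late stage, by 0.85 ± 0.13 (SE, adjusted p = 0.0037 in edgeR), where 7.98% of all genes were called in either direction. The megakaryocyte marker ITGA2B, the most abundant of its list summed over the lines, was lowest in the early stage lines as SPRY4 was, with 63.9 and 52.5 CPM in the controls, 13.4, 5.96 and 13.2 in the early and 56.8 and 99.2 in the late stage lines. VWF, the other tested gene of that list, had its lowest values in the controls, with 0.666 and 0.291 CPM in the controls, 37, 3.88 and 7.93 in the early and 13.8 and 6.67 in the late stage lines. VWF passed 10 CPM through the 10 and 50 nM lines alone, so that no test is given, and it exceeded ITGA2B in 10 nM, as ITGB3 (7.97 CPM) did in 15 nM.

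The 8 megakaryocyte markers summed to 80.5 and 64.3 CPM in the controls, 60.2, 20.7 and 30.7 in the early stage and 82.8 and 114 in the late stage, with 2 of 8 tested and the defining genes GP9, PF4 and PPBP under 1 CPM in every line. The 8 monocyte and lymphocyte markers summed to 251 and 252 CPM in the controls, 125, 33.3 and 152 in the early and 405 and 437 in the late stage, mostly PTPRC except in the 10 and 15 nM lines. PTPRC had 11.2, 0.898 and 103 CPM in the early stage lines and LYZ 101, 24.6 and 42.1, and CSF1R and MS4A1 were under 1 CPM in every line. The 6 stromal markers summed to between 6.11 and 19.8 CPM with COL1A1 the most abundant summed over the lines, and COL1A2 the most abundant in DMSO (14.3 CPM, against 4.87 for COL1A1). No marker gene was at 0 counts in every line. In bulk RNA, fewer cells of a kind and less RNA per cell cannot be told apart. Of 7 genes that respond to handling and stress of cells 6 were tested, of which HSPA1A, HSPA1B and DNAJB1 rose in the early and the late stage and ATF3 fell in the early stage, by 1.96 ± 0.23 (SE, adjusted p = 0.00095 in edgeR), beside the early stage shares of 7.92% higher and 10.1% lower and the late stage share of 7.98% in either direction over all genes. HSPA1A and HSPA1B are near-identical copies whose reads may be split between them.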

How the data were processed

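The authors extracted RNA, depleted ribosomal RNA, sequenced 1 directional library per line, aligned reads to hg19 with STAR and counted them per gene with featureCounts. They deposited counts without normalization. Versions of STAR and featureCounts are not given in the sources used here. The deposited comparison tables hold the authors' own fold changes on the log2 scale, average abundance and p-values, raw and adjusted, which were not used, and gene symbols, positions and lengths, which were.

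The 10 genes and all lists were chosen with earlier results of these data known. CPM was computed as counts over the library total. The quasi-likelihood test of edgeR 4.0.16 in R 4.3.3, with TMM scaling, was run on 10452 genes that reached 10 CPM in 2 or more libraries and, for scarce genes, on 14899 that reached 1 CPM, with all 7 libraries in the fit and Benjamini-Hochberg adjustment over all genes tested. The threshold of 0.005 follows the study. The biological coefficient of variation was 0.161. P-values measure the spread between lines of a group. Intervals of log2 differences are 95% and use the fit's degrees of freedom. The floor was 3 counts per library, between 0.108 and 0.150 CPM. Precision of scarce genes is limited by these counts, and floors cover counting error only.

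Named besides the 10 genes were list members past 0.005 in either comparison with control, up to 4 per list and direction with the smallest p, the 3 genes most correlated with SPRY4 and with DUSP6, BCR, ABL1 and ABCG2, and the most abundant gene of each marker list. Other genes, among them further marker genes such as VWF, ITGB3, GP9, PF4, PPBP, HBZ, LYZ, CSF1R, MS4A1 and COL1A2, were named after their values were seen. Alternatives were DESeq2 1.42.0, limma-voom (limma 3.58.1), other scalings, limits, thresholds and library sets. Some list genes are not reported here.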

Additional observations from a re-analysis of the deposited data

Results flagged for a closer look

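Genes are given here because the early stage lines all lay on one side of the control mean and the late stage lines all on the other. This criterion itself was not tested, and the genes were picked by it after their values were seen. The differences between late and early stage are log2 values with the adjusted p of edgeR's quasi-likelihood test.

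Against the control mean, 7 genes of the pathway lists were lower in the early and higher in the late stage. The share of all genes that meet the criterion was not counted, so nothing is read from their number. Of the genes given here, CCND1, IER2, RRAS2, PTPN11, ELK3 and DUSP1 had early stage lines that overlapped the controls. For RPS6KA1 and MKNK1 all early stage lines lay below both controls. CCND1 (cyclin D1) had means of 15.3 CPM in the controls, 6.22 in the early and 74.6 in the late stage, a late minus early difference of 3.62 with an adjusted p of 0.044. IER2, an immediate early gene, had 136, 109 and 176 CPM, a difference of 0.69 (adjusted p = 0.025). RPS6KA1, a kinase that ERK activates, had 60.8, 52.4 and 77.5 CPM, a difference of 0.56 (adjusted p = 0.027). The RAS family gene RRAS2 had 31.9, 29.5 and 42.8 CPM, a difference of 0.53 (adjusted p = 0.041). PTPN11, the phosphatase SHP2, differed by 0.18 (adjusted p = 0.19), MKNK1 by 0.21 (adjusted p = 0.12) and the scarce ETS factor ELK3 by 0.41 (adjusted p = 0.18). In the opposite direction, DUSP1 differed by -0.48 (adjusted p = 0.22). None of the 8 passed 0.005, which 0.0% of all genes passed in this comparison at either CPM limit. A cause was not tested.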

How the results depend on the processing

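For the 9 genes fitted, DUSP4 having passed neither limit, 393 values over 27 results were recomputed under the alternatives, of which 368 kept their direction and side of the threshold, 15 passed it newly, 5 no longer passed it and 5 turned sign. The turns, all log2 differences with 1 library left out, were EGR1 early against control (-0.76 to 0.42, the latter without the DMSO line), SPRY4 late against control (-0.053 without the 200 nM line, up to 0.28), SPRED2 late against control (-0.048 without the 200 nM line and -0.01 without the drug naive line, up to 0.069) and DUSP5 late against early (-0.52 to 0.082, the latter without the 200 nM line), and their cause was not tested.

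Of the 5 genes past 10 CPM, an adjusted p of 0.05 called 4 early against control, 2 late against control and 3 late against early. DESeq2 called 3 of them early against control, SPRED2 being the third. Late against early, DESeq2 called 3 of them and testing without a limit on low counts called 1. Of the 4 scarce genes late against control, DESeq2 called 1 (SPRY1) and an adjusted p of 0.05 counted 2, SPRY1 and DUSP6, of which DUSP6 passed 1 CPM only through the late stage lines and is not read as a call. Leaving out each library in turn called between 0 and 2 of the 5 early against control and 0 in the other comparisons, and 0 of the scarce genes.

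Over all genes the count called early against control was 1881, with 3548 by DESeq2 and 4865 at 0.05. Late against control it was 834, with 2503 by DESeq2, 257 with the 2 groups alone, 1287 without a limit and 3542 at 0.05. Late against early it was 0, with 1135 by DESeq2, 295 without a limit and 1328 at 0.05. Leaving out each library gave 208 to 2066 genes early against control, 33 to 596 late against control and 0 to 198 late against early. The lowest counts, 208 and 33, came without the drug naive line, and 529 and 110 without the DMSO line, where 1 control is left and assumed to vary like the other groups. The 198 came without the 50 nM line. No paired analysis was possible, since each line has 1 library. In the study the DasR lines are steps of the same dose escalation, so the lines used as replicates are not independent of each other.

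With 1 library per line and 2 or 3 lines per group, dose, stage and line cannot be told apart. The study also reports the kinase domain mutation p.T315I of BCR::ABL1 in both late stage lines. It was present at a low share in the early stage line of highest dose, and no mutation was detected in the DasR lines of lower dose. The late stage lines therefore also differ from most early stage lines in this mutation, whose part in the results was not tested. DUSP4 and DUSP6 rest on fewer than 30 counts per library. Other scalings moved the median of all genes by less than 0.1 on the log2 scale.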
